A study of Xenopus laevis with 4 samples.

Results

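The znf genes are the genes that carry the plain symbol znf and a number, the default name for genes whose product contains zinc fingers. They were taken as every row of the count table whose name, once a final .L or .S was removed, began with znf and a digit, which gave 181 of 49078 rows. X. laevis is allotetraploid, and .L and .S mark the copies of a gene on the long and the short chromosome of each homeologous pair. The 181 rows stood for 121 names: 60 with both copies, 36 with the .L copy only and 25 with the .S copy only. In NCBI RefSeq (Xenopus_laevis_v10.1), 155 of the rows matched a gene symbol and 4 a synonym. Of these 159, 158 were protein coding and 1, znf287.S, was listed as lncRNA.

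Most zinc finger proteins of this kind carry C2H2 fingers, short loops held by a zinc ion between pairs of cysteines and histidines, which in tandem arrays read DNA. Many act as transcriptional repressors through corepressor complexes, while others bind RNA, ribosomes or the mitotic spindle. In frogs, as in other vertebrates, zinc finger genes often lie in tandem clusters of similar copies.

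Whole X. laevis embryos were sampled some 9 hours post fertilization, at the mid-blastula transition, when the embryo starts to transcribe its own genome on a large scale. The 2 EU-RNA libraries held RNA captured from embryos that had received 10 nl of 50 mM 5-ethynyl uridine (EU) at the 1-cell stage. EU is a uridine analogue that enters RNA made after the injection, to which biotin was attached for pull-down on streptavidin beads. The 2 Normal libraries held total RNA, maternal and newly made together, of embryos that were not injected, so that capture and injection cannot be told apart as sources of a difference between the groups. No strain, clutch or number of embryos per library is given in the sources used here, so the p-values rest on the spread of 2 libraries per group, and that spread may be technical. In bulk RNA of whole embryos, fewer cells that make a transcript and less of it per cell cannot be told apart.

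The deposited totals ranged from 47598265 to 209445802 estimated counts per library. A gene at 0 counts may thus still be present at up to 3 counts, or 0.0143 to 0.0630 CPM, the counts after scaling for library size. This floor uses the library totals alone, while the other CPM given here are also scaled by TMM, described below. The labels were checked with stage genes. Of 21 tested copies of zygotic genes such as gs17, bix1.1 and eomes, 18 were higher in EU-RNA and 0 were lower by edgeR. At an unadjusted p below 0.05 these were 20 and 0, and by DESeq2 20 and 0. Of 14 copies of maternal genes 1 was higher and 1 lower by edgeR. At an unadjusted p below 0.05 these were 1 and 3, and by DESeq2 1 and 1. The summed CPM of the maternal copies was 1064 and 1132.5 in EU-RNA against 996 and 1022 in Normal. TMM sets the average transcript near an equal level in both groups. The check thus could not show whether maternal transcripts as a whole were depleted in the captured RNA. Of 36 rows for genes of differentiated blood, liver, pancreas, muscle and nerve, 28 were too low to test, and all haemoglobin rows were at 0. The summed CPM of the 36 rows was 73.3 and 46.7 in EU-RNA against 9.67 and 14.3 in Normal, and 1 of the 8 tested, ins.L, was higher. Their part in the results was not tested.

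Most znf genes were present both in the captured and in the total RNA. At least 1 count was found for 161 and 166 of the 181 genes in EU-RNA replicates 1 and 2, and for 164 and 176 in Normal replicates 1 and 2. All 4 libraries held 154 of them (85.1%), against 40.4% of all rows of the table, of which 28.5% had 0 counts in every library. Other zinc finger families were as well covered. The filter on low counts used for testing passed 170 of the 181 znf rows. It also passed 68 of 68 zbtb, 11 of 11 zfp, and 31 of 33 zc3h and zcchc rows. Besides the 154 znf genes found in all 4 libraries, 22 were present in only some, and 5 (znf276.L, znf330.L, znf33b.S, znf366.L and znf581.L) had 0 counts in all 4. With at least 1 count, 0 genes were seen in EU-RNA alone and 8 (4.42%) in Normal alone, against 3.65% and 13.6% of all rows. With a minimum of 10 counts these were 2 and 9 genes. Both EU-RNA libraries held 159 genes and both Normal libraries 164, and these counts and the 5 absent genes were the same with every library thinned to the smallest total.

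**Figure D1:**
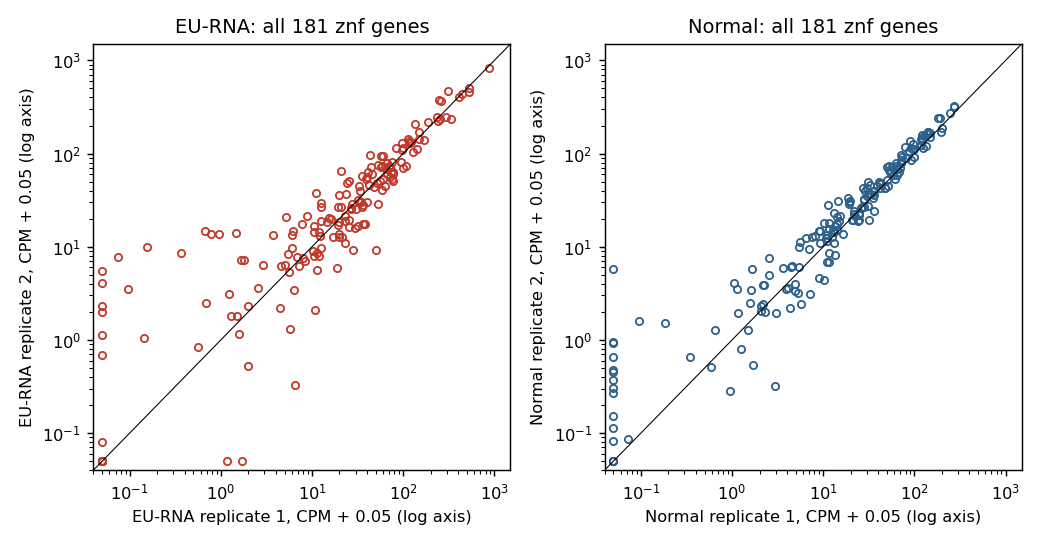
TMM-scaled CPM of all 181 znf genes in replicate 2 (vertical) against replicate 1 (horizontal), EU-RNA on the left and Normal on the right, each point a gene, with 0.05 CPM added on log axes and a line of equality. The scatter is wider in EU-RNA than in Normal, and some EU-RNA points above 10 CPM also lie far from the line, such as znf148.L at 50.7 and 9.22 CPM.

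The error was larger in the captured RNA. Among the 170 znf genes that passed the filter on low counts, the absolute log2 ratio between replicates had a median of 0.42 in EU-RNA and 0.30 in Normal. Over all 26543 tested features these medians were 0.66 and 0.39. The znf genes were also more often abundant, with 54.7% of those tested in the highest of 3 equal classes of all tested features by average log2 CPM. Within that class the median absolute ratios were 0.33 in EU-RNA and 0.22 in Normal for znf genes, and 0.39 and 0.21 for all features. The widest disagreement between EU-RNA libraries at an average log2 CPM of at least 3 was in 3 genes. znf521.S, a gene named for a multi-finger transcription cofactor, stood at 0.622 and 14.6 CPM in the EU-RNA libraries against 13.5 and 16.6 CPM in Normal. znf81.S stood at 0.727 and 13.6 CPM against 6.43 and 12.4 CPM, and znf362.L at 0.903 and 13.7 CPM against 13.2 and 14.3 CPM. In each of the 3, EU-RNA replicate 1 was below both Normal libraries. EU-RNA replicate 2 lay between the Normal libraries for znf521.S and znf362.L and above both for znf81.S. After thinning, 4 genes (znf180.S, znf71.L, znf711.S and znf800.L) still had 0 counts in EU-RNA replicate 1 and at least 100 in EU-RNA replicate 2. A 0 in 1 captured library was thus not a repeated absence. Such a split between the EU-RNA libraries, in either order, was found for 2.21% of znf genes and 3.98% of all rows.

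The share newly made was followed as the EU share, the EU-RNA CPM as a percentage of the sum of the EU-RNA and Normal CPM. CPM here are scaled by TMM, which sets the average transcript near an equal level in both groups. No spike-in is named in the sources used here, so 50% means the average transcript and not a share of the molecules that were new. The tested znf genes had a median EU share of 52.7%, with quartiles of 43.2% and 62.3%, and 53.9% and 52.0% when replicates 1 and 2 were taken alone. The median over all tested features was 50.2%, with quartiles of 37.2% and 69.8%. A share of at least 75% was found for 24 znf genes (14.1% of those tested) and for 20.5% of all tested features, and a share of at most 25% for 9 (5.29%) against 13.4%. Between EU-RNA and Normal, 117 of the 170 stayed within 2-fold (68.8%), against 52.3% of all tested features. These shares were not matched for abundance, and the median average log2 CPM was 4.62 for znf genes and 2.90 for all tested features.

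In the test of the difference (edgeR, adjusted p below 0.05), 11 of the 170 tested znf genes were higher in EU-RNA and 2 were lower. Among all tested features 4.69% were higher and 0.889% lower, against 6.47% and 1.18% of the znf genes, shares near that background. Both EU-RNA libraries lay above both Normal libraries in 37.1% of the tested znf genes and below them in 21.8%. Over all tested features these shares were 26.4% and 30.6%, so groups that lie apart are common and are given below as description only. The log2 fold change of EU-RNA over Normal had a median of 0.15 over the znf genes and 0.01 over all tested features. All 11 higher genes lay in the class of highest abundance, where 11.8% of znf genes and 12.2% of all features were higher. With scaling by library size only, which moved the median of all features to 0.27, 20 znf genes were higher and 1 was lower, where 6.65% and 0.535% of all features were. Leaving out a captured library also moved the counts: 32 were higher and 15 lower when EU-RNA replicate 1 was left out, beside 10.4% and 10.1% of all features then tested. When EU-RNA replicate 2 was left out, 31 were higher and 42 lower, beside 14.9% and 17% of all features. The calls thus also rose over the whole table. Without Normal replicate 1 the counts were 9 and 0 (3.77% and 0.476% of all features), and without Normal replicate 2 they were 15 and 1 (5.52% and 0.612%). At an unadjusted p below 0.05, 26 were higher and 17 lower, 15.3% and 10.0% of the znf genes beside 12.3% of all features in each direction. DESeq2 called 22 higher and 10 lower, where it called 11.2% and 6.99% of all tested features, and limma-voom 15 and 2, where it called 4.25% and 1.45%.

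**Figure D2:**
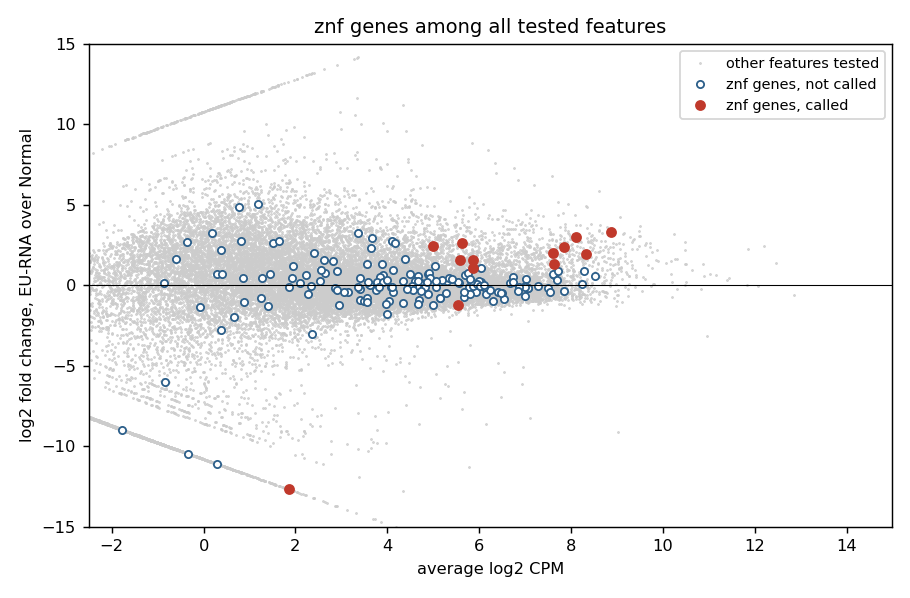
Log2 fold change of EU-RNA over Normal (vertical) against average log2 CPM (horizontal) for the 170 tested znf genes over all other tested features in grey, of which 436 lie outside the axes. The 11 higher znf genes sit at an average log2 CPM of about 5 or more, and most others lie around 0.

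The 3 znf genes with the smallest p were znf33a.L, znf585b.S and znf268.S. znf585b.S, for which RefSeq holds the synonym xfdl156, a Xenopus inhibitor of p53 in the ectoderm, was at 872 and 828 CPM in EU-RNA and at 71.9 and 96.5 CPM in Normal. EU-RNA exceeded Normal by 3.33 on the log2 scale (SE 0.24, edgeR adjusted p = 0.00358), and its EU share of 91.0% was the highest of the 13 called genes. znf33a.L was at 523 and 457 CPM in EU-RNA and at 64.4 and 59.3 CPM in Normal, higher by 2.99 on the log2 scale (SE 0.20, edgeR adjusted p = 0.00358). znf268.S was at 523 and 501 CPM against 118 and 142 CPM, higher by 1.98 (SE 0.20, edgeR adjusted p = 0.00586). In all 3 both EU-RNA libraries lay well above both Normal libraries. These genes also had the 3 highest EU-RNA CPM of all znf genes, which does not rank their levels, since the counts are not divided by transcript length. The 3 calls held in each of the 11 alternatives tried.

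These 3 genes are near neighbours on chromosome 6L of Xenopus_laevis_v10.1. The deposited names znf585b.S and znf268.S are listed there as synonyms of .L genes. In the order of protein-coding genes, znf585b.S is 12 places from znf33a.L and 12 from znf268.S. The neighbourhood was looked up after the values were seen, and no test is attached to it. Of the 25 protein-coding genes from znf33a.L to znf268.S, 15 were matched to rows of the table and all 15 were tested. Apart from the 3 znf genes, 6 of the other 12 were higher in EU-RNA, 0 were lower by edgeR, and 6 did not pass. Their median was 1.87 on the log2 scale. Over all tested features 4.69% were higher by edgeR, and 12.2% of those in the class of highest abundance. The 12 together summed to 2581 and 2144 CPM in EU-RNA and to 361 and 354 CPM in Normal. Under the alternatives, 6 or 7 of the 12 were higher.

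Among the neighbours, LOC108719557 stood at 181 and 134 CPM in EU-RNA against 9.13 and 9.10 CPM in Normal, higher by 4.11 on the log2 scale (SE 0.25, edgeR adjusted p = 0.00358). prdm9.L, which RefSeq now lists under another symbol, was higher by 3.74 (SE 0.25), and LOC108718447, LOC108718446, LOC108719510 and LOC100301958 by 2.11 to 3.18 on the log2 scale. The difference reached past the stretch. Of the 24 genes before it, 4 of 15 tested features were higher, and of the 24 after it, 5 of 11 tested. By edgeR 0 were lower on either side, and over all tested features 4.69% were higher. The difference did not cover every gene there. LOC108719542 (-0.05, SE 0.60) and LOC108719552 (0.14, SE 0.53) between the 3 znf genes did not pass. LOC108719507 leaned to EU-RNA without passing (1.63, SE 0.51). LOC108719532 (-3.13, SE 2.46), LOC108719567 (-3.34, SE 3.03) and LOC108704418 (-4.29, SE 2.56) leaned to Normal without passing. The genes that leaned to Normal were at low counts, with mean CPM of 1.02 to 2.00 in Normal. The next znf gene, znf484.L, was at 35.2 and 57.2 CPM in EU-RNA and at 64.3 and 67.9 CPM in Normal (log2 fold change -0.52, SE 0.29, edgeR adjusted p = 0.351). znf605.L, farther to the other side, had a log2 fold change of -0.10 (SE 0.20). Tandem zinc finger genes can share reads, so single values in this stretch are uncertain if its genes are such copies. What the LOC genes encode is not given here. The part of shared reads in the direction common to the called genes was not tested. The order of genes is that of RefSeq, while the sources used here do not name the build behind the counts.

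**Figure D3:**
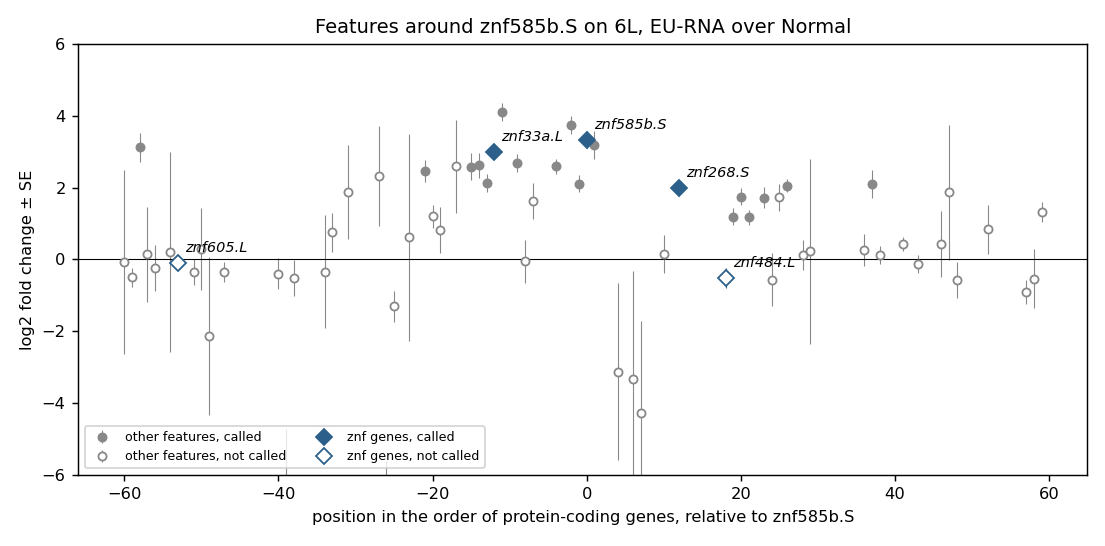
Log2 fold change of EU-RNA over Normal with its SE (vertical) for tested features up to 60 protein-coding genes either side of znf585b.S (horizontal, place in gene order), znf genes as diamonds, other features as circles, filled where called. Of 67 features, 4 lie outside the axis of ±6, and every filled point lies above 0.

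To see how usual such a neighbourhood was, the 10 protein-coding genes on each side were looked up for all 158 znf genes placed among protein-coding genes. For 91 of them no flanking feature other than a znf gene was higher, for 48 there was 1, and for 8 there were 2. znf33a.L had 8 of 14 tested, znf585b.S 5 of 11 and znf268.S 3 of 7, where 4.69% of all tested features were higher. These windows overlap: those of znf33a.L and znf585b.S share LOC108718446, LOC108718447 and prdm9.L. The window of znf484.L, which was not called, had 5 of 9 tested and belongs to the same neighbourhood on 6L. It shares LOC108718434, LOC108719517 and LOC108719569 with that of znf268.S, and its 5 were counted above among the genes after the stretch. On other chromosomes, large numbers also stood beside znf genes that were not called themselves. For znf638.L, on 1L, these were 5 of 9 tested. The copies of znf518a had 6 of 14 for znf518a.L and 7 of 11 for znf518a.S. They lie near the ventx homeobox genes, BMP targets that pattern the ventral side. The higher ventx genes were 5 to 9 places from znf518a.L and 3 to 8 places from znf518a.S. Of these, ventx2.1.S was higher by 2.70 (SE 0.22) and ventx2.2.L by 2.35 (SE 0.20) on the log2 scale. znf518a.L itself was at 75.9 and 53.7 CPM in EU-RNA and at 64.5 and 69.9 CPM in Normal, with a log2 difference of -0.05 (SE 0.24, edgeR adjusted p = 0.934). znf518a.S was at 127 and 104 CPM against 78.7 and 119 CPM, so that the groups overlapped for both copies. Around the called znf genes on other chromosomes that could be placed, 0 to 2 flanking features were higher.

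Both copies of znf750, which encodes a regulator of epidermal differentiation in human skin, were higher. znf750.L was at 307 and 471 CPM in EU-RNA and at 71.0 and 79.1 CPM in Normal, and znf750.S at 262 and 366 CPM against 71.7 and 85.0 CPM. Their log2 fold changes were 2.37 (SE 0.27, edgeR adjusted p = 0.00747) and 2.00 (SE 0.24, edgeR adjusted p = 0.00940). EU-RNA replicate 2 was the higher captured library for both copies, and both groups stood clear of each other. znf750 was the only name of which both copies were called.

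The remaining higher genes were at lower counts or smaller differences. znf408.S, whose human counterpart is mutated in retinal vascular disease, was at 100 and 70.6 CPM in EU-RNA and at 11.4 and 15.5 CPM in Normal, higher by 2.66 (SE 0.31, edgeR adjusted p = 0.00814). znf804a.L, whose human counterpart is studied as a psychiatric risk gene, was at 62.7 and 45.3 CPM against 7.40 and 12.6 CPM (2.43, SE 0.38, edgeR adjusted p = 0.0212). Its other copy, znf804a.S, was at 0 except for 12 counts in Normal replicate 2. znf653.L, which encodes a transcriptional repressor, was at 93.9 and 80.6 CPM against 30.9 and 27.6 CPM (1.58, SE 0.22, edgeR adjusted p = 0.0152). These 3 calls, like those of znf750.L and znf750.S, held in each of the 11 alternatives.

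znf238.2.L, related to the neural repressor gene zbtb18 by its RefSeq synonym, was at 71.7 and 71.0 CPM in EU-RNA and at 19.0 and 29.0 CPM in Normal (1.57, SE 0.28, edgeR adjusted p = 0.0332). znf839.L was at 331 and 232 CPM against 95.2 and 128 CPM (1.34, SE 0.26, edgeR adjusted p = 0.0439). znf554.L was at 76.1 and 81.5 CPM against 36.1 and 40.0 CPM (1.05, SE 0.21, edgeR adjusted p = 0.0460). The groups did not overlap in any of them, but their calls were lost without Normal replicate 1. The log2 fold changes were then 1.30, 1.14 and 0.98. The call of znf554.L was also lost without Normal replicate 2, with a log2 fold change of 1.13. With 1 Normal library left, the spread comes from the EU-RNA libraries alone, which scattered more.

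The 2 lower genes rested on less. znf414.L was at 0 counts in EU-RNA replicates 1 and 2 and at 10.0 and 4.37 CPM in Normal (447 and 818 counts). The floor of 3 counts over the group covers counting error alone, and not splits between EU-RNA libraries such as those described above. On that floor znf414.L was at least 527-fold lower in the captured RNA (edgeR adjusted p = 0.0425). This bound was 319-fold without Normal replicate 1, and 323-fold or 205-fold without EU-RNA replicate 1 or 2, where the floor is 3 counts in the library left, values added after the data were seen. znf300.L was at 27.7 and 28.7 CPM in EU-RNA and at 56.9 and 72.5 CPM in Normal, a log2 difference of -1.20 (SE 0.24, edgeR adjusted p = 0.0467). The EU-RNA libraries lay below the Normal libraries for both. The call of znf414.L was lost without Normal replicate 1 and by limma-voom (adjusted p = 0.0538). That of znf300.L was lost without Normal replicate 1 (log2 fold change -1.36) and without Normal replicate 2 (-1.01). It was also lost with scaling by library size only (edgeR adjusted p = 0.0870). Of the other genes at 0 in EU-RNA, znf469.S had 131 and 358 counts in Normal and znf385a.L had 128 and 51, and neither passed (edgeR adjusted p = 0.127 and 0.162).

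**Figure D4:**
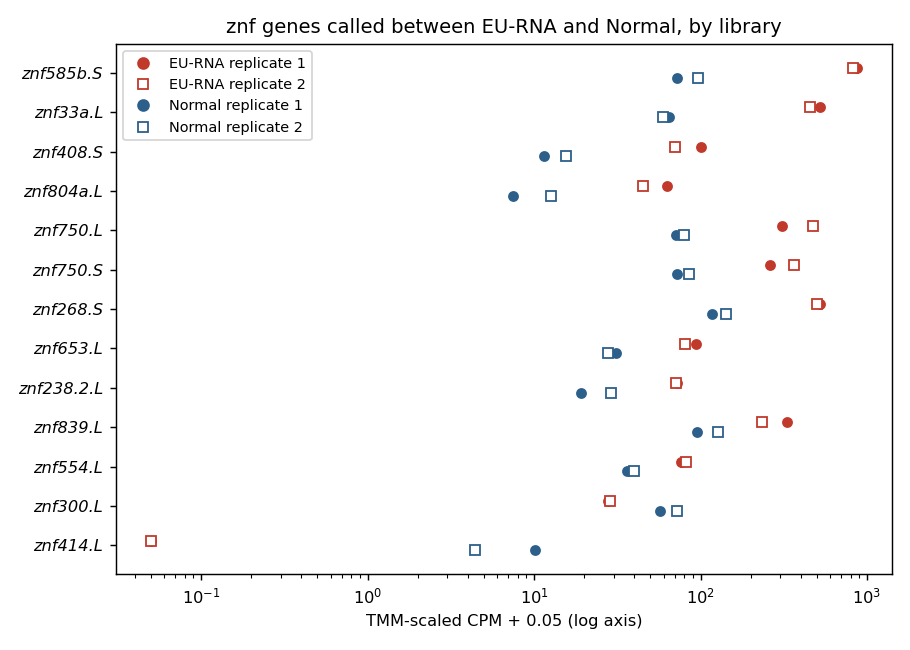
TMM-scaled CPM plus 0.05 on a log axis (horizontal) of the 13 called znf genes in each library, EU-RNA in red and Normal in blue, circles for replicate 1 and squares for replicate 2. The 2 groups do not overlap in any of the 13, which were called on these same values. Both EU-RNA points of znf414.L lie at 0 counts.

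The role groups are small, and each count is read beside the shares over all tested features, which were 4.69% higher and 0.889% lower by edgeR, 12.3% in each direction at an unadjusted p below 0.05, and 11.2% and 6.99% by DESeq2. Of 22 tested rows in a group that act on RNA or ribosomes, edgeR called 0 in either direction, with a median of 0.25 on the log2 scale. At an unadjusted p below 0.05, 3 were higher and 2 lower, and DESeq2 called 3 and 1. The 2 with the smallest p were znf106.L, an RNA-binding protein gene, at 404 and 408 CPM in EU-RNA against 189 and 240 CPM in Normal (0.92, SE 0.20, edgeR adjusted p = 0.0613), and znf346.S, which encodes a binder of double-stranded RNA, at 297 and 248 CPM against 137 and 162 CPM (0.87, SE 0.20, edgeR adjusted p = 0.0727). znf326.S, which encodes a subunit of a complex linking RNA polymerase to splicing, had the highest mean CPM of any znf gene in Normal. It was at 442 and 437 CPM in EU-RNA and at 274 and 321 CPM in Normal, without passing (edgeR adjusted p = 0.159). The EU-RNA libraries were above the Normal ones in these 3 genes. Under the 11 alternatives znf106.L passed in 9, znf346.S in 7 and znf326.S in 3.

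Of 10 tested rows for spindle and genome maintenance edgeR called 0, with 1 higher and 1 lower at an unadjusted p below 0.05 and 0 and 1 by DESeq2. znf207.S, which encodes the spindle protein BuGZ, was at 115 and 136 CPM in EU-RNA and at 90.9 and 84.5 CPM in Normal (0.52, SE 0.19, edgeR adjusted p = 0.168). znf518b.L was at 41.3 and 63.7 CPM against 96.8 and 113 CPM (-0.996, SE 0.27, edgeR adjusted p = 0.103), and passed in 5 of 11 alternatives. The copies of znf143, first described in Xenopus as Staf, an activator of small nuclear RNA genes, were below Normal in both EU-RNA libraries without passing. znf143.L stood at 15.9 and 19.5 CPM against 34.7 and 33.2 CPM (-0.94, SE 0.30, edgeR adjusted p = 0.148) and znf143.S at 45.9 and 59.7 CPM against 68.5 and 70.2 CPM (edgeR adjusted p = 0.369).

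In the group of patterning and differentiation genes, 2 of 10 tested rows were higher, which are the copies of 1 gene, znf750, and 0 were lower by edgeR (4 and 0 at an unadjusted p below 0.05, and 4 and 0 by DESeq2). znf703.S, which encodes a corepressor-binding protein of early ectoderm and neural crest, did not pass. It was at 31.8 CPM in both EU-RNA libraries and at 11.5 and 8.53 CPM in Normal (1.67, SE 0.36, edgeR adjusted p = 0.0550). znf462.S was at 35.2 and 26.6 CPM against 2.50 and 7.49 CPM (2.62, SE 0.61, edgeR adjusted p = 0.0707). In both the groups stood apart, and znf703.S passed in 8 and znf462.S in 7 of the 11 alternatives. Of 19 tested rows for partners of corepressor complexes edgeR called 0, with a median of -0.15 on the log2 scale, 3 higher and 3 lower at an unadjusted p below 0.05, and 3 and 1 by DESeq2. znf281.S, a regulator of pluripotency in mouse cells, was at 251 and 236 CPM in EU-RNA against 147 and 152 CPM (0.71, SE 0.18, edgeR adjusted p = 0.0862), and znf276.S at 12.3 and 18.7 CPM against 33.5 and 36.6 CPM (-1.18, SE 0.34, edgeR adjusted p = 0.122). Under the 11 alternatives znf281.S passed in 6 and znf276.S in 4. znf407.S, in no role group, was the lower gene nearest to a call, at 19.8 and 18.5 CPM against 42.1 and 46.6 CPM (-1.21, SE 0.26, edgeR adjusted p = 0.0584), and passed in 6 of the 11.

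The 6 znf genes with the highest mean CPM in Normal were znf326.S and znf106.L, described above and higher in both EU-RNA libraries without passing, and 4 others. znf638.S, an RNA-binding protein gene linked in human cells to silencing of foreign DNA, was at 248 and 373 CPM in EU-RNA and at 274 and 312 CPM in Normal. znf605.S was at 185 and 217 CPM against 246 and 276 CPM, znf462.L at 149 and 171 CPM against 182 and 243 CPM, and znf217.L, which encodes a corepressor-binding factor, at 133 and 205 CPM against 198 and 186 CPM. None of these 4 passed, with edgeR adjusted p from 0.309 to 0.895. These 6 genes made up 19.3% of the summed znf CPM in Normal. In EU-RNA the 6 with the most CPM were znf585b.S, znf268.S, znf33a.L, znf326.S, znf106.L and znf750.L, which made up 29.0% there. Only znf326.S and znf106.L were in both sets, so the percentages do not follow the same genes. Over all 181 genes the sum was 10415 and 10885 CPM in EU-RNA and 7114 and 8121 CPM in Normal. Genes with high CPM weigh most in this sum. The median log2 fold change of the 170 tested znf genes was 0.15, and 93 of them were above 0.

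The fold changes of the copies of a name were compared, and no difference between copies passed a test. For 53 names both copies were tested, and in 32 of them the log2 fold changes had the same sign. The absolute difference between copies had a median of 0.87. Neither value was set beside that of all pairs, and only in 42 of the 53 were both SE below 1.5. The test of the difference was made on the log2 ratio of the .L to the .S copy in each library (limma, adjusted over 4523 pairs of the whole table). It called 0 of the 53 pairs and 0 of all pairs, while 10 of 53 (18.9%) and 16.1% of all pairs had an unadjusted p below 0.05. The smallest limma adjusted p was that of znf282, whose human counterpart represses a viral promoter. znf282.L was at 6.01 and 9.71 CPM in EU-RNA and at 3.57 and 5.81 CPM in Normal, and znf282.S at 6.72 and 7.77 CPM against 19.2 and 30.3 CPM. The log2 ratio of .L to .S was higher in EU-RNA by 2.36 (SE 0.41, limma adjusted p = 0.177).

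In znf462, whose mouse counterpart acts on heterochromatin in embryonic stem cells, the .S copy named above leaned to EU-RNA and the .L copy did not. The log2 ratio of .L to .S was 2.07 and 2.66 in EU-RNA and 5.93 and 4.93 in Normal, a difference of -3.06 (SE 0.55, limma adjusted p = 0.181). For znf770, znf770.S stood at 2.49 and 3.54 CPM in EU-RNA and 0.292 and 0.608 CPM in Normal, and znf770.L at 12.6 and 29.8 CPM against 18.7 and 33.6 CPM. The difference was -2.25 (SE 0.48, limma adjusted p = 0.207). Apart from znf750, with both copies called, the tested other copies of called genes had smaller log2 fold changes. The called copies were picked for their large differences, so a smaller value in the other copy is no separate result. znf653.S was at 33.5 and 29.8 CPM against 26.7 and 26.8 CPM, a difference of the log2 ratio of 1.32 in favour of znf653.L (SE 0.38, limma adjusted p = 0.257). znf839.S was at 39.2 and 53.9 CPM against 31.5 and 37.1 CPM, and znf238.2.S at 29.7 and 16.0 CPM against 13.0 and 11.004 CPM (limma adjusted p = 0.450 and 0.552 for the differences). Reads can be split wrongly between such copies, and its part in these differences was not tested.

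**Figure D5:**
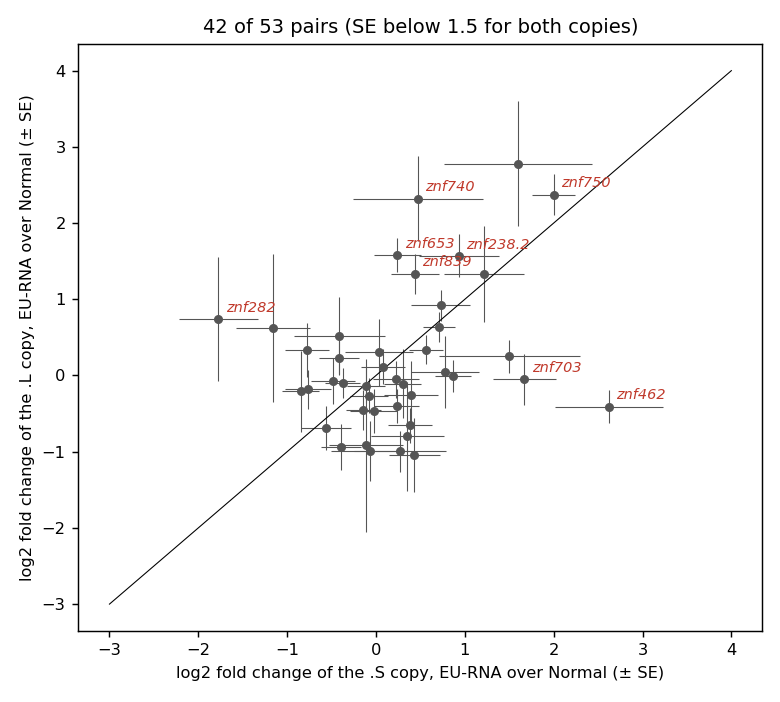
Log2 fold change of EU-RNA over Normal of the .L copy (vertical) against that of the .S copy (horizontal), each with its SE, for the 42 of 53 pairs in which both SE were below 1.5, with a line of equality. znf750 lies near the line at high values of both copies, while znf462 and znf703 lie far below it and znf282 above it.

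Counts for the lists below are also read beside all tested features, of which 4.69% were higher and 0.889% lower by edgeR. The shares were 12.3% in each direction at an unadjusted p below 0.05, and 11.2% and 6.99% by DESeq2. Among other zinc finger families in the same fit, 2 of 68 tested zbtb rows (C2H2 repressors with a BTB domain) were higher and 1 was lower. The zbtb median was 0.17 on the log2 scale. At an unadjusted p below 0.05, 9 were higher and 5 lower, and DESeq2 called 7 and 2. The higher ones were zbtb2.L (1.43, SE 0.21) and zbtb34.S (1.32, SE 0.22). zbtb20.L, with 0 counts in EU-RNA, was lower (edgeR adjusted p = 0.0280). Of 11 rows named zfp and a number, which include RNA-binding zfp36 genes with fingers of another type, 1 was higher, zfp36l2.S (0.93, SE 0.19). Of 31 tested zc3h and zcchc rows, families that mostly bind RNA, zc3h10.L was higher (1.91, SE 0.31), while zcchc8.L (-1.04, SE 0.19) and zc3h18.L (-0.93, SE 0.18) were lower. At an unadjusted p below 0.05, 3 were higher and 8 lower, and DESeq2 called 3 and 5. Of 53 rows for the corepressor machinery, from the histone methyltransferase setdb1 to the deacetylases and Groucho-related genes, edgeR called 0, with a median of -0.35 on the log2 scale. At an unadjusted p below 0.05, 4 were higher and 9 lower, and DESeq2 called 2 and 6. Its smallest p was that of trim33.L (-0.94, SE 0.19, edgeR adjusted p = 0.0504) and the next that of setdb1.L (-0.84, SE 0.19, edgeR adjusted p = 0.0618).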

How the data were processed

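The kit for the 2 EU-RNA and 2 Normal libraries was one meant for fixed human tissue, according to the labels' protocols. Gene-level estimated counts were deposited by the authors as whole numbers, with 1 column per library. The tools named are bcl2fastq and Salmon 0.12.0, per the submitters' processing notes. Not given in the sources used here are the transcript set, the build, the strandedness and any scaling by length. Values of overlapping or antisense genes are therefore uncertain. Counting error alone sets the floors.

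The deposited expected counts were tested with edgeR 4.0.16 (R 4.3.3): quasi-likelihood F-test, TMM, filterByExpr, Benjamini-Hochberg over 26543 features, threshold 0.05. The SE was taken as the absolute log2 fold change over the root of F. Limma 3.58.1 tested homeolog ratios with 0.5 CPM added, and DESeq2 1.42.0 was an alternative. The edgeR and limma fits were run on counts simulated with the same spread in both groups. In these data EU-RNA scattered more, so those runs do not show how often true differences are called here. Members, lists and roles were chosen with earlier results of these data known. Named genes were called members, their other copies, the 6 with most CPM per group, the 2 smallest p per role group or list, the 4 smallest p not called, 3 at 0 in EU-RNA, 3 with the widest EU-RNA replicate ratio and 3 homeolog pairs. Genes beside the members, with znf484.L, znf605.L, znf638.L, znf518a.L, znf518a.S and genes named for counts of 5 or fewer, were chosen after their values were seen. No protein or promoter sequence was used here.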

Additional observations from a re-analysis of the deposited data

How the results depend on the processing

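Of the 13 called znf genes, 8 kept their call and direction in all 11 alternatives. The number of higher znf genes, 11 by the main test, was 20 with scaling by library size only, 22 without a filter, 22 by DESeq2 and 19 with a replicate block. The shares of all features that were higher rose as well, from 4.69% to 6.65%, 7.09%, 11.2% and 6.74%. Leaving out 1 library gave 9 to 32. The number of lower genes, 2 by the main test, was 1, 7, 10 and 5 in the same order, and 0 to 42 with a library left out. The share of all features that were lower, 0.889% by the main test, moved in the same directions. It was 0.535% with scaling by library size only, 3.23% without a filter, 6.99% by DESeq2 and 2.56% with a replicate block. When a captured library is left out, the lone EU-RNA library is assumed to vary like the Normal ones, and the filter then passes more features. When a Normal library is left out, the spread comes from the EU-RNA libraries alone. The median log2 fold change of 0.15 was 0.41 with scaling by library size only, 0.024 with the replicate block, 0.00195 by limma-voom and 0.045 to 0.24 with a library left out. The median of all features, 0.01 by the main test, moved too, to 0.27, -0.16 and -0.21 in the first 3. The znf median was above it by 0.14 in the main test, by 0.14, 0.18 and 0.22 in those 3, and by 0.0063 to 0.51 with a library left out, least without Normal replicate 2. Libraries with equal replicate numbers did not deviate together (correlation of deviations 0.00067 over 26543 features), so the numbers are not taken as pairs, and the replicate block is given for its counts only. It called 0 homeolog pairs, as did every other alternative run for them.

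Direction changed only in genes that were not called. znf638.S ranged from -0.29 without EU-RNA replicate 2 to 0.29 without EU-RNA replicate 1, and was at -0.0059 without Normal replicate 1. znf217.L was at 0.087 with scaling by library size only and ranged from -0.58 to 0.039 with a library left out. znf81.S ranged from -3.72 without EU-RNA replicate 2 to 0.49 without EU-RNA replicate 1, and was at 0.16 without Normal replicate 2. znf770.L ranged from -1.09 without EU-RNA replicate 2 to 0.19 without Normal replicate 2, and was at 0.14 without EU-RNA replicate 1. The cause was not tested. Of 451 values of 41 named genes under alternatives, 358 kept direction and side of the threshold, 76 passed it anew, 9 fell short and 8 changed sign. Depth limits genes near 0.0630 CPM, the largest floor of 3 counts before TMM scaling.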
